A study of Mus musculus with 32 samples.

Results

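Lung libraries of ovariectomized (5) and sham-operated (5) female mice, all exposed to cigarette smoke for 5 months, were compared across all expressed genes. Ovariectomy is the surgical removal of the ovaries, and a sham operation is the same surgery with the ovaries left in place. The libraries were chosen by their labels alone, and they are 10 of the 32 libraries of the study. Both groups were C57B/6 females from which poly(A) RNA of the lung was sequenced, and they shared the smoke exposure. No operated group breathing room air is among the groups used, so all differences below are differences within smoke. The study also holds an ovariectomy comparison at 3 months of smoke (3 sham and 3 ovariectomized libraries), and a separate experiment in unoperated males and females in room air or smoke. The labels do not give the age of the mice at surgery, the interval between surgery and smoke, or the hour at which lungs were taken. Whether each library is a different mouse is not said either, and p-values therefore reflect the spread between libraries, which may be technical.

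The ovaries are the main source of circulating estradiol and progesterone, hormones that act through nuclear receptors encoded by Esr1, Esr2 and Pgr. Chronic cigarette smoke brings macrophages, neutrophils and lymphocytes into the lung and can break down the elastic fibres of the alveolar walls, the lesion called emphysema. The lung also carries a circadian clock, in which the activator pair Bmal1 (gene Arntl) and Clock drives the Per, Cry and Nr1d genes, whose products hold the pair in check, and Dbp, whose product carries the rhythm to further genes.

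Total counts were 14174600 to 17902548 in the sham group and 14788607 to 24497332 in the ovariectomized group (exact permutation test of the group means, two-sided p = 0.286 over 252 splits). The tissue label was checked on alveolar genes: the summed level of 13 alveolar type 2 markers was 92147 to 106246 TPM (the deposited length-scaled unit) in the sham libraries and 100021 to 104795 TPM in the ovariectomized libraries. Liver transcripts stood out in 3 of the 10 libraries. Alb, which encodes serum albumin, was at 586, 508, 3.24, 1.72 and 1.11 CPM in the sham libraries and 1.82, 15.4, 0.940, 0.951 and 1113 CPM in the ovariectomized libraries (CPM, counts relative to the scaled library total), and 2 ovariectomized libraries at 3 months were also above 100 CPM. These 5 libraries separated from the other 11 of the experiment on the first principal component, which held 28.6% of the variance, so results are also given without them. That fit kept 3 sham and 4 ovariectomized libraries at 5 months, and 1 ovariectomized library at 3 months. The part of the smaller groups in calls lost there was not tested.

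After 5 months of smoke, 230 of 16874 tested genes (1.36%) differed between ovariectomized and sham lungs at an adjusted p under 0.05 (edgeR's quasi-likelihood test, Benjamini-Hochberg adjustment). Of these, 99 (0.587%) rose after ovariectomy and 131 (0.776%) fell, and an unadjusted p under 0.05 was reached by 2617 genes (15.5%). The changes were small: the median fold of the called genes was 1.31, it was 1.25 among the risen and 1.36 among the fallen, and 16 genes changed at least 2-fold, of which 3 rose and 13 fell. The 5 values of one group lay entirely apart from the 5 of the other in 188 of the 230 called genes, and in 650 (3.85%) of all tested genes. The split by direction moved with the method: 43.0% of the called genes had risen, against 8.90% of 191 genes called by limma on log2(TPM + 1) and 62.8% of 288 called with an offset for transcript GC content. The number of calls was 111 (39 risen and 72 fallen) without the 5 libraries high in Alb. It ran from 39 without sham library 1 to 259 without ovariectomized library 2, and 229 or 230 of the 230 called genes kept their direction when any 1 library was left out. The plot of all tested genes shows both directions.

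**Figure D1:**
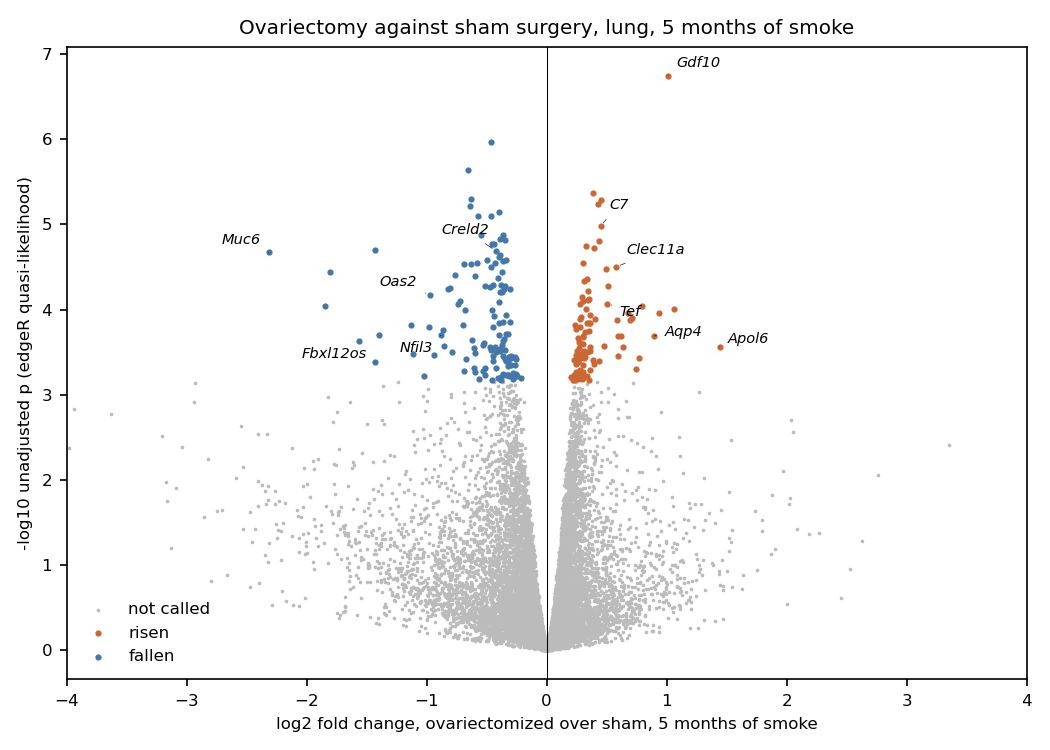
Each point is 1 tested gene; the horizontal axis is the log2 fold change of ovariectomized over sham lungs after 5 months of smoke and the vertical axis is −log10 of the unadjusted p of edgeR's quasi-likelihood test. The 99 risen genes are orange and the 131 fallen genes blue; Gdf10 has the smallest p, and 9 tested genes lie beyond a log2 fold change of 4 in either direction and are not drawn.

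Gdf10 had the smallest p of all tested genes. Gdf10, which encodes a secreted ligand of the TGF-beta superfamily (chromosome 14, 33923587 to 33935280), was at 8.13, 7.68, 8.19, 9.13 and 7.901 CPM in the sham libraries and 16.2, 12.1, 17.4, 18.4 and 18.6 CPM in the ovariectomized libraries, each list in the order of libraries 1 to 5. Every ovariectomized library was above every sham library, and the group means differed 2.01-fold (log2 fold change 1.01, SE 0.14, adjusted p = 0.00305). The call held without any 1 library (adjusted p up to 0.0165) and without the libraries high in Alb (adjusted p = 0.0266). Over all tested genes the log2 fold change reached 3.35, in a gene left out by the naming rule given below. Among the called genes that this rule kept, the largest rise was in Apol6, an apolipoprotein L family gene (chromosome 15, 77044729 to 77057107). Apol6 rose from 1.09 ± 0.385 to 2.95 ± 1.14 CPM (2.71-fold, log2 fold change 1.44, SE 0.34, adjusted p = 0.0361). Its libraries were 1.597, 1.38, 0.935, 0.689 and 0.829 CPM after sham surgery and 1.95, 2.18, 4.39, 2.25 and 3.98 CPM after ovariectomy, with ovariectomized libraries 3 and 5 well above the other 3, and its call was lost without 6 of the 10 libraries taken singly (adjusted p up to 0.0928) and without those high in Alb (0.0640). Clec11a, which encodes a secreted lectin-like growth factor for blood and bone progenitors (chromosome 7, 44303770 to 44306959), was at 12.2, 10.5, 9.403, 11.1 and 11.4 CPM in the sham libraries and 16.1, 17.6, 16.1, 17.6 and 14.2 CPM in the ovariectomized libraries. The groups did not overlap, and the rise was 1.49-fold (log2 fold change 0.58, SE 0.11, adjusted p = 0.0148, up to 0.0425 without any 1 library).

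Another 10 large rises were named, and the naming rule took only called genes whose groups did not overlap. Among genes of secreted or surface proteins, Fjx1 rose 1.91-fold (5.001 to 10.8 CPM after sham surgery and 12.1 to 19.996 CPM after ovariectomy), Srpx 1.64-fold (5.05 to 6.35 CPM after sham surgery and 7.56 to 12.2 CPM after ovariectomy) and the carboxypeptidase-like gene Cpxm1 1.498-fold (12.4 to 21.9 CPM after sham surgery and 22.96 to 31.4 CPM after ovariectomy). Susd4, which encodes a complement regulator, rose 1.43-fold (26.05 to 33.1 CPM after sham surgery and 35.9 to 52.5 CPM after ovariectomy). Among genes of excitable or contractile cells, the sodium channel subunit Scn3b rose 1.74-fold (12.8 to 18.9 CPM after sham surgery and 20.6 to 33.8 CPM after ovariectomy), and Rgs5, a G protein regulator enriched in pericytes, 1.71-fold (6.37 to 8.27 CPM after sham surgery and 9.18 to 19.9 CPM after ovariectomy). Tuba8, a tubulin gene, rose 1.54-fold, Nrep 1.41-fold, Ccdc122 1.67-fold and Fam46b 1.597-fold. In these 10 genes the adjusted p lay between 0.0152 (Nrep) and 0.0443 (Ccdc122). The values of Rgs5 were spread unevenly, with ovariectomized libraries 4 and 5 at 13.7 and 19.9 CPM and the other 3 below 10. Each of these 10 calls was lost without at least 1 library: Nrep without sham library 1 (adjusted p = 0.0546), Susd4 without sham library 1 or ovariectomized library 1 (up to 0.0638), and the others without 4 to 8 of the 10 libraries taken singly (up to 0.133 for Ccdc122). Without the libraries high in Alb, 7 of the 10 calls were lost: Srpx (adjusted p = 0.184), Rgs5 (0.118), Scn3b (0.0981), Ccdc122 (0.0946), Fam46b (0.0938), Tuba8 (0.0815) and Cpxm1 (0.0786).

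Muc6 had the largest fall among the genes named by rule. The rule keeps called genes only and leaves out weakly expressed genes, genes whose groups overlap and those without a regular symbol. Some of the genes left out fell further. Muc6, which encodes a secreted gel-forming mucin best known from the stomach (chromosome 7, 141633456 to 141655319), was at 3.61, 2.41, 1.65, 3.501 and 3.48 CPM in the sham libraries and 0.127, 0.613, 0.522, 0.901 and 0.783 CPM in the ovariectomized libraries. All ovariectomized libraries were below 1 CPM and all sham libraries above it, a 4.98-fold difference (log2 fold change −2.32, SE 0.44, adjusted p = 0.0145, up to 0.0470 without any 1 library). The mucins of the airway were not called: Muc5b had a log2 fold change of −0.65 (adjusted p = 0.461) and Muc5ac −0.62 (0.726), and of 12 tested goblet cell and mucin genes 0 were called and 10 were lower. Oas2, an interferon-induced enzyme that senses double-stranded RNA (chromosome 5, 120730333 to 120749853), was at 13.8, 7.91, 13.4, 9.41 and 11.9 CPM in the sham libraries and 7.53, 5.45, 5.64, 4.05 and 5.96 CPM in the ovariectomized libraries. The lowest sham library was just above the highest ovariectomized library, and the fall was 1.97-fold (log2 fold change −0.98, SE 0.20, adjusted p = 0.0195). The Oas2 call was lost without sham library 1, sham library 3 or ovariectomized library 4 (adjusted p up to 0.0695) and stood without the libraries high in Alb (adjusted p = 0.0401). Cd300lf, an inhibitory receptor of myeloid cells, fell 1.67-fold (12.2 to 22.9 CPM after sham surgery and 8.21 to 10.8 CPM after ovariectomy), and Rab44, a large Rab GTPase gene expressed in granulocytes and mast cells, 1.69-fold (10.5 to 14.1 CPM after sham surgery and 5.53 to 8.79 CPM after ovariectomy). The Cd300lf call was lost without the same 3 libraries as that of Oas2 (adjusted p up to 0.0695), and the Rab44 call without sham library 1 (0.0606); without the libraries high in Alb both were lost (0.0643 and 0.105).

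Other falls named by the rule, each of at least 1.6-fold, were in genes of different kinds. Lack of overlap was a condition of that rule. Lrrc16b fell 2.18-fold (5.16 to 8.56 CPM after sham surgery and 2.41 to 3.82 CPM after ovariectomy), and Pcsk4, a proprotein convertase known from sperm, 2.17-fold (3.26 to 5.55 CPM after sham surgery and 1.23 to 2.71 CPM after ovariectomy). The calcium channel gene Cacna1a fell 1.805-fold (5.83 to 8.45 CPM after sham surgery and 2.59 to 4.39 CPM after ovariectomy), the organic anion transporter gene Slco4a1 1.82-fold (5.77 to 7.08 CPM after sham surgery and 2.77 to 4.27 CPM after ovariectomy), and the mitochondrial carrier gene Slc25a27 1.77-fold (10.3 to 11.9 CPM after sham surgery and 3.93 to 8.19 CPM after ovariectomy). Trim46 fell 1.74-fold, Rgs11 1.73-fold and Spaca6, needed for sperm and egg fusion, 1.65-fold. Falls of 2 further genes are uncertain. Fbxl12os fell 2.69-fold (1.83 to 4.31 CPM after sham surgery and 0.507 to 1.57 CPM after ovariectomy), but it is an antisense gene and the labels do not say whether counting used strand. Erdr1 fell 1.92-fold (22.7 to 41.5 CPM after sham surgery and 12.7 to 21.4 CPM after ovariectomy); it lies in the pseudoautosomal region, which the deposited table places on the Y chromosome, and near-identical copies can share its reads. Adjusted p-values in this set ran from 0.0179 (Slc25a27 and Trim46) to 0.0393 (Fbxl12os). Each call was lost without at least 1 library, among them Slc25a27 without sham library 1 (adjusted p = 0.0546), Trim46 without sham library 4 (0.0558), and Fbxl12os, Pcsk4 and Rgs11 without 8 of the 10 libraries taken singly. Without the libraries high in Alb the calls of Erdr1 (adjusted p = 0.255, and 0.124 with the GC offset), Slco4a1 (0.152), Pcsk4 (0.120), Fbxl12os (0.0961), Cacna1a (0.0712) and Spaca6 (0.0652) were lost.

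**Figure D2:**
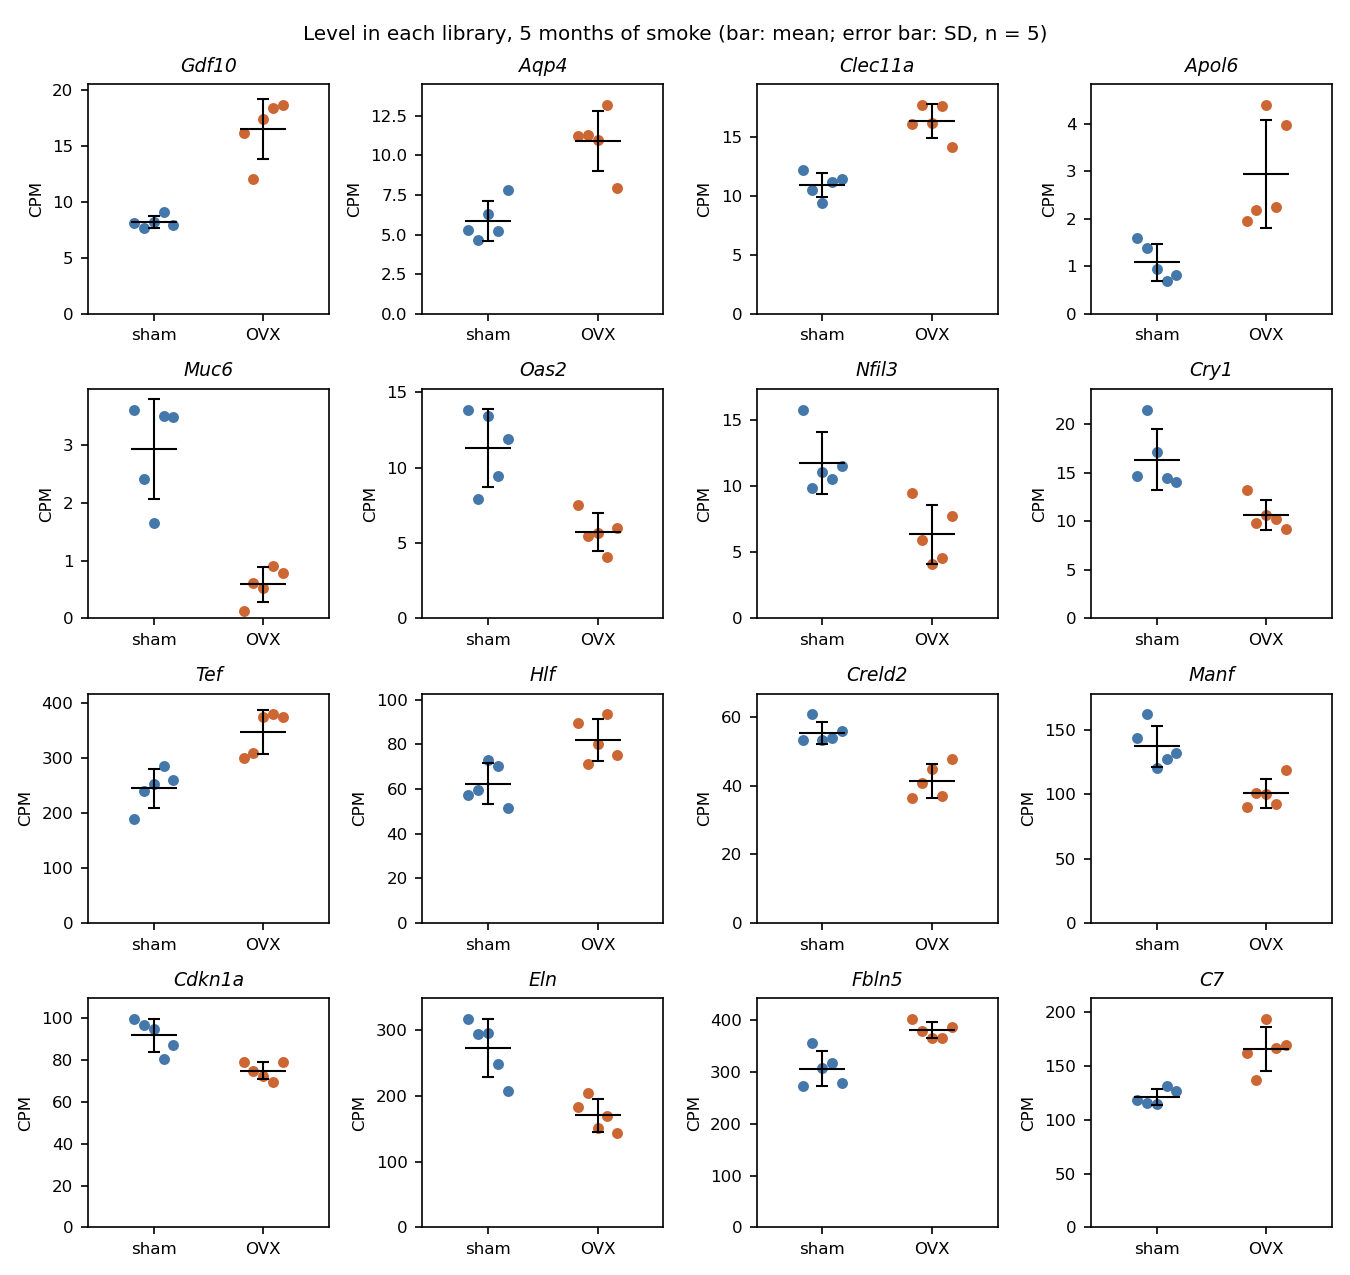
Each panel shows 1 gene, with its level in CPM (linear axis from 0) in the 5 sham libraries (blue) and the 5 ovariectomized libraries (orange, OVX), the mean as a bar and the SD as the error bar. The groups do not overlap in 15 of the 16 panels, which the naming rule required of the largest rises and falls. In Hlf the highest sham library, at 73.2 CPM, is above the lowest ovariectomized library, at 71.3 CPM.

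The arms of the circadian clock lay in opposite directions. In the Bmal1 arm, all 5 tested genes were lower after ovariectomy and 2 were called (Nfil3 and Cry1), with a median log2 fold change of −0.88. Of the 10 tested genes of the Per and Dbp arm, 9 were higher and 2 were called (Tef and Hlf), with a median of 0.48. Over all tested genes 47.6% were higher and 52.4% lower, 0.776% were called as fallen and 0.587% as risen, and the median was −0.01. The clock genes were known to move between groups of this study when the list was drawn up, so the counts are a description.

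Nfil3 encodes a repressor that binds the same D-box elements as Dbp, Tef and Hlf, and its transcription is held down by Nr1d1 and Nr1d2 (chromosome 13, 52967209 to 52981073). It was at 15.8, 9.86, 11.1, 10.5 and 11.5 CPM in the sham libraries and 9.47, 5.93, 4.12, 4.55 and 7.71 CPM in the ovariectomized libraries. Ovariectomized libraries 1 and 5 came nearest to the sham range, the groups did not overlap, and the fall was 1.84-fold (log2 fold change −0.88, SE 0.20, adjusted p = 0.0314). Cry1, a repressor of the Bmal1 and Clock pair (chromosome 10, 85131702 to 85185054), was at 14.7, 21.5, 17.2, 14.5 and 14.03 CPM in the sham libraries and 13.2, 9.81, 10.7, 10.2 and 9.21 CPM in the ovariectomized libraries, a 1.54-fold fall without overlap (log2 fold change −0.62, SE 0.14, adjusted p = 0.0334). Arntl itself was at 39.03, 35.95, 35.9, 26.98 and 25.7 CPM in the sham libraries and 25.96, 21.3, 17.9, 10.4 and 13.01 CPM in the ovariectomized libraries, with ovariectomized library 1 inside the sham range, and did not pass (log2 fold change −0.88, SE 0.25, adjusted p = 0.106). Npas2, a partner of Bmal1 in place of Clock, was at 17.02, 15.7, 14.8, 11.1 and 11.3 CPM in the sham libraries and 10.1, 7.36, 7.47, 2.802 and 4.82 CPM in the ovariectomized libraries, apart in all 10 libraries but with a wide spread (log2 fold change −1.10, SE 0.33, adjusted p = 0.122).

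On the other arm, Tef, a D-box activator (chromosome 15, 81802421 to 81826861), was at 189, 239.5, 252, 285 and 259.6 CPM in the sham libraries and 300.1, 309, 375, 379.9 and 375 CPM in the ovariectomized libraries. The groups did not overlap and the rise was 1.42-fold (log2 fold change 0.51, SE 0.10, adjusted p = 0.0218). Hlf, its close relative (chromosome 11, 90336536 to 90390895), was at 57.2, 59.5, 73.2, 70.3 and 51.5 CPM in the sham libraries and 89.6, 71.3, 80.1, 93.4 and 75.3 CPM in the ovariectomized libraries, a 1.32-fold rise with 1 ovariectomized library inside the sham range (log2 fold change 0.40, SE 0.10, adjusted p = 0.0404). Dbp had a wide spread, at 12.5, 19.4, 25.4, 39.7 and 19.9 CPM in the sham libraries and 39.9, 38.4, 57.9, 71.2 and 49.6 CPM in the ovariectomized libraries (2.19-fold, log2 fold change 1.13, SE 0.36, adjusted p = 0.150). Nr1d1 and Nr1d2, which encode the heme-binding repressors Rev-erb alpha and beta, were 1.47-fold and 1.51-fold higher, each without overlap, with adjusted p of 0.167 and 0.0713. Ciart was the 1 member that was lower (log2 fold change −0.50, adjusted p = 0.412).

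The clock calls depended on single libraries. Without the 5 libraries high in Alb, 0 members of either arm were called, and the medians were −0.65 and 0.28. In that fit Nfil3 had a log2 fold change of −0.87 (adjusted p = 0.0671), Cry1 −0.47 (0.189), Tef 0.36 (0.0524) and Hlf 0.36 (0.200). The Tef call was lost without ovariectomized library 3 alone (adjusted p = 0.0550), and those of Nfil3, Hlf and Cry1 without 5, 6 and 7 of the 10 libraries taken singly (up to 0.112, 0.121 and 0.0729). At 3 months, in other libraries, the medians were −1.08 for the Bmal1 arm (5 of 5 lower) and 0.69 for the Per and Dbp arm (9 of 10 higher), with 0 members called. The plot of the clock genes sets both ages of exposure side by side.

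**Figure D3:**
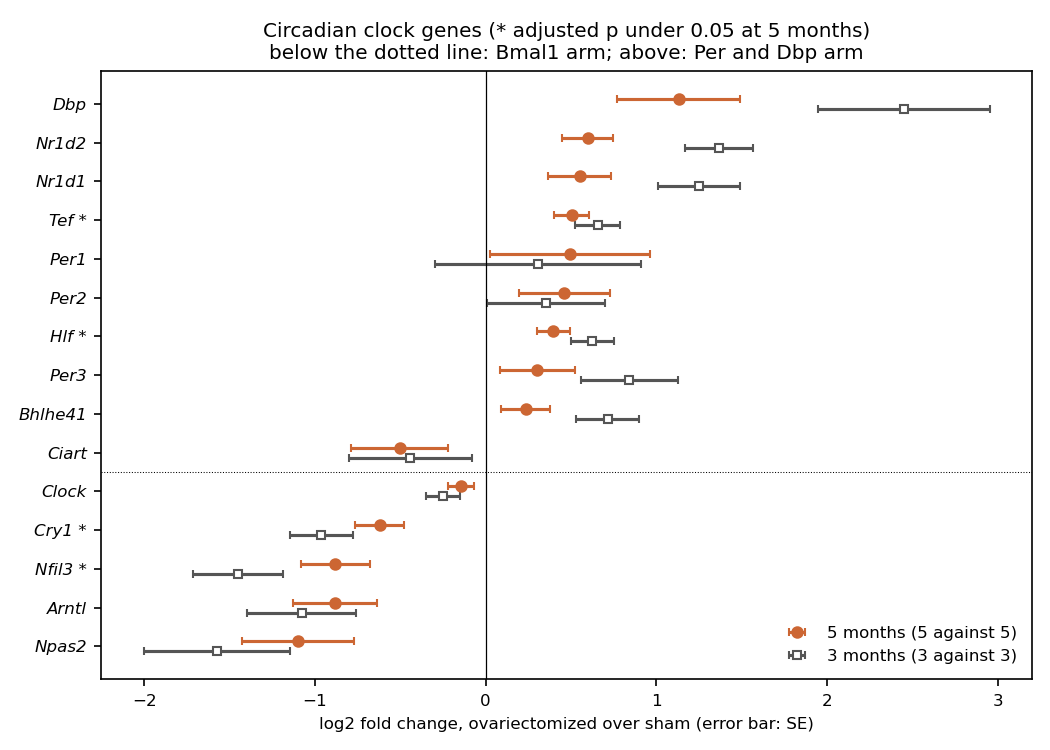
Points give the log2 fold change of ovariectomized over sham lungs for 15 clock genes with its SE, at 5 months (orange circles, 5 against 5 libraries) and 3 months (open squares, 3 against 3). All 5 Bmal1 arm genes lie below 0 and 9 of 10 Per and Dbp arm genes above 0 at both times; asterisks mark the 4 genes called at 5 months.

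The promoters of Nfil3 and Tef are shown because these called genes, 1 from each arm, hold short clock elements. The 250 bases before each RefSeq gene start (GRCm38.p6) were searched on both strands for the E-box CACGTG (bound by Bmal1 and Clock), the D-box TTATGTAA (bound by Tef, Hlf, Dbp and Nfil3) and the Rev-erb and ROR element as TAGGTCA or TGGGTCA. Matches are in capitals, and sequences run 5′ to 3′ on the strand of the gene. The Nfil3 promoter (chr13:52981040-52981289, minus strand) holds 1 match to TAGGTCA, read on the opposite strand, 6 to 12 bases before the start. The Tef promoters (chr15:81802423-81802672, plus strand, and chr15:81811164-81811413, plus strand) hold 1 E-box each.
Nfil3: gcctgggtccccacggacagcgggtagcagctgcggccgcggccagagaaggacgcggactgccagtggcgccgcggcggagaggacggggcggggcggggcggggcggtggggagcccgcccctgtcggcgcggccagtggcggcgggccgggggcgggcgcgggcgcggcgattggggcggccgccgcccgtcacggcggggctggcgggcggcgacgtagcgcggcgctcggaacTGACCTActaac
Tef, first start: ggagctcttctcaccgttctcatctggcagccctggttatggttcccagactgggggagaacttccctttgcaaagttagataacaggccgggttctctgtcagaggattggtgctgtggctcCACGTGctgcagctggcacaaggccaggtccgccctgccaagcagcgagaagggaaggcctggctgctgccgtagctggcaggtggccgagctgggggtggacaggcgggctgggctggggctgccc
Tef, second start: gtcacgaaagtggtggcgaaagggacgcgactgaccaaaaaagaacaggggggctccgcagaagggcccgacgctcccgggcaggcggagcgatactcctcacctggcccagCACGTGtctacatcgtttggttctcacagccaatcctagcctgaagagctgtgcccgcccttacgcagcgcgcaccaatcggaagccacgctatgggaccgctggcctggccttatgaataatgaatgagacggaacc
Among all 32851 promoters of this length, 2.23% hold TAGGTCA, 3.24% hold TGGGTCA, 6.02% hold the E-box and 0.819% the D-box. Of the 11829 tested genes with an entry, 2.10% hold TAGGTCA, 3.47% TGGGTCA, 9.09% the E-box and 0.693% the D-box. The E-box is in 8 of 73 risen genes (10.96%) and 10 of 93 fallen genes (10.75%), and the D-box in 0 of either. TAGGTCA is in 1 of the risen (1.37%) and 3 of the fallen genes (3.23%), and TGGGTCA in 2 (2.74%) and 1 (1.075%). Of the other clock genes searched, Cry1, Per1, Ciart and Bhlhe41 hold an E-box and Per3 the D-box. In the 4 lists searched for elements, which include both clock arms, 43 of 52 tested genes had an entry. A clock gene not named here may therefore lack an entry rather than an element.

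A set of endoplasmic reticulum genes was lower after ovariectomy. The unfolded protein response raises chaperones and degradation factors when proteins misfold in this compartment. Of 17 tested genes of the response, 16 were lower, 2 were called as fallen (Creld2 and Manf), against 0.776% of all tested genes, and the median log2 fold change was −0.18. Creld2, a stress-induced disulfide isomerase-like gene (chromosome 15, 88819646 to 88826681), was at 53.4, 60.9, 53.3, 53.9 and 56.1 CPM in the sham libraries and 36.5, 40.7, 45.004, 37.1 and 47.8 CPM in the ovariectomized libraries. The lowest sham library was above the highest ovariectomized library, a 1.34-fold fall (log2 fold change −0.42, SE 0.08, adjusted p = 0.0145, up to 0.0425 without any 1 library and 0.0378 without the libraries high in Alb). Manf, a secreted stress-induced factor (chromosome 9, 106838312 to 106891979), was at 144, 162, 121, 128 and 132 CPM in the sham libraries and 90.2, 101, 101, 92.5 and 119 CPM in the ovariectomized libraries. Those groups did not overlap either, and the fall was 1.36-fold (log2 fold change −0.45, SE 0.09, adjusted p = 0.0179), a call lost without sham library 1 or ovariectomized library 1 (adjusted p up to 0.0627).

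The other members had smaller differences that did not pass. Hspa5, the main chaperone of the compartment, was at 752, 879, 834, 755 and 702 CPM in the sham libraries and 694, 612, 615, 609 and 775 CPM in the ovariectomized libraries, with 1 ovariectomized library inside the sham range (log2 fold change −0.25, SE 0.08, adjusted p = 0.126). Hyou1 had a log2 fold change of −0.33 (adjusted p = 0.123), Sdf2l1 −0.41 (0.287) and Pdia4 −0.17 (0.395), while Herpud1 was the 1 member that was higher (0.21, 0.375). Outside the list, and picked after their values were seen, Syvn1 and Edem1 also fell. Syvn1, the ubiquitin ligase of endoplasmic reticulum degradation (chromosome 19, 6046576 to 6053712), was at 64.04, 74.9, 67.7, 65.6 and 63.8 CPM in the sham libraries and 50.96, 49.7, 50.96, 53.3 and 56.6 CPM in the ovariectomized libraries (1.28-fold, log2 fold change −0.36, SE 0.07, adjusted p = 0.0145), and Edem1, which hands misfolded glycoproteins to it (chromosome 6, 108828641 to 108859356), at 108, 120.2, 116, 102 and 99.3 CPM in the sham libraries and 84.5, 81.6, 69.2, 87.3 and 92.7 CPM in the ovariectomized libraries (1.31-fold, log2 fold change −0.39, SE 0.08, adjusted p = 0.0187). Neither gene's groups overlapped. At 3 months the list's median was 0.00, and the log2 fold changes of Creld2 and Manf were −0.11 and 0.00. Without the libraries high in Alb, 3 members were called and the median was −0.20.

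A sequence element of this response was searched among the called genes. The endoplasmic reticulum stress element, which is CCAAT, then any 9 bases, then CCACG, was searched on both strands of the 250 bases before each RefSeq start and lies in 37 of 32851 promoters (0.113%). Of 11829 tested genes with an entry it was in 18 (0.152%), of 93 fallen genes in 3 (3.23%) and of 73 risen genes in 0. The 3 are Creld2, Syvn1 and Zfp57, which encodes a zinc finger protein that keeps imprinted genes methylated, and they are shown with Hspa5, whose element is a well-known one. Matches are in capitals, on the gene's strand.
Creld2 (chr15:88819396-88819645, plus strand): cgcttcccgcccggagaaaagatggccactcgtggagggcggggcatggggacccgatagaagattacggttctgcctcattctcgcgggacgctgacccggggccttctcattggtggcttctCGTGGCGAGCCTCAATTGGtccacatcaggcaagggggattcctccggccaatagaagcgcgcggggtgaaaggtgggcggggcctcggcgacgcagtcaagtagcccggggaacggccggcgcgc
Syvn1 (chr19:6046326-6046575, plus strand): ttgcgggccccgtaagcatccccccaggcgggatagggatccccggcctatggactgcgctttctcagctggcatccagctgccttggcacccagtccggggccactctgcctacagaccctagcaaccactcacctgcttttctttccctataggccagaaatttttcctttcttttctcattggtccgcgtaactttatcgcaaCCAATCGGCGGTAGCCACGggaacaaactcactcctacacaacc
Zfp57 (chr17:37002275-37002524, plus strand): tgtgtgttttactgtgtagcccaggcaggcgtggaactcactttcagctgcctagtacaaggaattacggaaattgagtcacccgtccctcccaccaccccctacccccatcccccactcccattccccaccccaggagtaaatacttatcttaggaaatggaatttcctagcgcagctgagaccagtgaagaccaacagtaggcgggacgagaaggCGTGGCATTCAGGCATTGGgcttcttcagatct
Hspa5 (chr2:34771840-34772089, plus strand): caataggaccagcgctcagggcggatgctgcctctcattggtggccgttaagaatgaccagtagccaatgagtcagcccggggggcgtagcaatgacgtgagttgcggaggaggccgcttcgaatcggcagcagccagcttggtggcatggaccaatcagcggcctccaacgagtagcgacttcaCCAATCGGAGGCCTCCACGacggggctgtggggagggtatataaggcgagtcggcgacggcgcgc
Zfp57 has 3 RefSeq starts, and the element is in the window of 1 of them. Zfp57 was at 45.8, 40.7, 35.96, 39.4 and 36.1 CPM in the sham libraries and 28.5, 29.98, 28.1, 34.03 and 29.7 CPM in the ovariectomized libraries, a 1.31-fold fall without overlap (log2 fold change −0.40, SE 0.09, adjusted p = 0.0314). Of the 18 tested genes with the element, 16 were lower and 2 higher, with a median log2 fold change of −0.22, and 6 of the 18 belong to the list above. The match in Creld2, at 88819520 to 88819538 of chromosome 15, is also in the window of Alg12, which starts in the opposite direction (log2 fold change −0.37, adjusted p = 0.184). The search was made after the changes were known, so the shares describe these genes and test nothing.

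The receptors of the ovarian hormones were not called. Pgr, the progesterone receptor and a classical estrogen-induced gene (chromosome 9, 8899833 to 8968611), was at 1.11, 1.204, 0.880, 2.698 and 1.49 CPM in the sham libraries and 4.19, 3.27, 4.12, 4.404 and 1.87 CPM in the ovariectomized libraries. It was higher in 4 of 5 ovariectomized libraries than in any sham library, but library 5 lay inside the sham range and the test fell short (log2 fold change 1.27, SE 0.34, adjusted p = 0.0598). Esr1, which encodes estrogen receptor alpha, was at 6.74 ± 1.83 CPM after sham surgery and 7.76 ± 1.02 CPM after ovariectomy (adjusted p = 0.636), and Esr2, which encodes estrogen receptor beta, at 1.74 ± 0.607 CPM after sham surgery and 2.29 ± 1.07 CPM after ovariectomy (0.705). Of 9 tested steroid receptor genes 0 were called and 7 were higher (median 0.18), and of 14 tested genes that estrogen induces in female tissues 0 were called and 8 were higher (median 0.05). At an unadjusted p under 0.05 in edgeR's test, 1 of the 9 and 3 of the 14 passed, where 15.5% of all tested genes did.

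The called genes of the elastic fibre differed in direction. Eln, which encodes tropoelastin, the monomer of elastin (chromosome 5, 134703781 to 134747241), was at 317, 294, 296, 248 and 207 CPM in the sham libraries and 184, 204, 151, 170.05 and 143 CPM in the ovariectomized libraries. The groups did not overlap, and the fall was 1.599-fold (log2 fold change −0.68, SE 0.13, adjusted p = 0.0232). Fbln5, a glycoprotein needed to lay elastin on microfibrils (chromosome 12, 101746565 to 101819055), went the other way: 274, 355, 308, 317 and 278 CPM in the sham libraries and 403, 379.7, 366, 366 and 387 CPM in the ovariectomized libraries, again without overlap (1.24-fold, log2 fold change 0.31, SE 0.08, adjusted p = 0.0379). Of 16 tested elastic fibre genes these 2 were called (1 risen, 1 fallen, where 1.36% of all tested genes were called), 11 were higher (47.6% of all tested genes were) and the median log2 fold change was 0.18. Fbln1 was 1.37-fold higher without overlap but was not called (adjusted p = 0.0659), and the crosslinking enzyme gene Lox had a log2 fold change of 0.15 (0.380). Of 24 tested collagen chains 0 were called, 12 were higher and 12 lower. Serpinh1, the collagen chaperone of the endoplasmic reticulum, fell 1.21-fold (431 to 500.1 CPM after sham surgery and 348 to 434 CPM after ovariectomy, adjusted p = 0.0495). The Eln call was lost without sham library 1, sham library 3 or ovariectomized library 3 (adjusted p up to 0.0695), without the libraries high in Alb (0.0643) and with the GC offset (0.0638). The Fbln5 call was lost without 9 of the 10 libraries taken singly (up to 0.119), and that of Serpinh1 also without 9 (up to 0.122), without the libraries high in Alb (0.0514) and with the GC offset (0.0834).

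Water and ion channels of the epithelium changed in both directions. Aqp4, a water channel of the basolateral membrane (chromosome 18, 15389394 to 15403684), was at 5.28, 4.64, 6.32, 5.22 and 7.85 CPM in the sham libraries and 11.2, 11.3, 10.96, 13.2 and 7.95 CPM in the ovariectomized libraries. Ovariectomized library 5 was just above sham library 5 and the other 4 stood higher, so the groups did not overlap, a 1.86-fold rise (log2 fold change 0.90, SE 0.21, adjusted p = 0.0314). Scnn1g, a subunit of the epithelial sodium channel that clears alveolar fluid, rose 1.28-fold (239.5 to 327 CPM after sham surgery and 332 to 395 CPM after ovariectomy, adjusted p = 0.0495). The chloride channels Cftr, altered in cystic fibrosis, and Slc26a9 fell 1.38-fold (20.1 to 29.97 CPM after sham surgery and 15.2 to 18.6 CPM after ovariectomy, adjusted p = 0.0370) and 1.25-fold (74.5 to 92.8 CPM after sham surgery and 61.9 to 80.7 CPM after ovariectomy, 0.0482). These were the 4 called among 15 tested fluid and ion transport genes, where 1.36% of all tested genes were called. Scnn1a and Scnn1b, the other subunits of the sodium channel, had log2 fold changes of 0.30 and 0.09 and were not called. Each of the 4 calls was lost without 7 or 8 of the 10 libraries taken singly, with an adjusted p of up to 0.141 (Scnn1g). Without the libraries high in Alb the calls of Scnn1g (0.0550), Cftr (0.138) and Slc26a9 (0.227) were lost, and with the GC offset that of Slc26a9 (0.0638).

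Alveolar type 1 cells form the thin gas-exchange surface, and 2 of their 11 tested markers rose, where 0.587% of all tested genes did. Igfbp2, a binding protein of insulin-like growth factors that marks mature type 1 cells (chromosome 1, 72824503 to 72852474), was at 742, 1246, 956, 973 and 724 CPM in the sham libraries and 1689, 1406, 1428, 1241 and 1469 CPM in the ovariectomized libraries, a 1.56-fold rise with the lowest ovariectomized library just inside the sham range (log2 fold change 0.64, SE 0.14, adjusted p = 0.0361). Pdpn, or podoplanin, which lymphatic vessels also express, rose 1.23-fold (305 to 391 CPM after sham surgery and 373 to 469 CPM after ovariectomy, adjusted p = 0.0495). The type 1 marker Ager had a log2 fold change of 0.22 (0.205), and the median of the list was 0.12. Of 13 type 2 markers 0 were called, Sftpc among them (0.14, 0.306). In bulk tissue, fewer cells of a type and less RNA per cell cannot be told apart. Among markers of other cell types, Tbx2, a transcription factor of aerocytes (capillary cells of gas exchange), fell 1.31-fold (133 to 169 CPM after sham surgery and 100.3 to 125 CPM after ovariectomy, adjusted p = 0.0495), and the alveolar fibroblast transporter gene Slc7a10 fell 1.52-fold (12.4 to 19.3 CPM after sham surgery and 8.71 to 13.8 CPM after ovariectomy, 0.0379). Each was the 1 called gene of its list, where 0.776% of all tested genes were called as fallen. Of 8 tested aerocyte genes 7 were lower (median −0.12), while of 10 tested alveolar fibroblast genes 6 were higher and 4 lower (median 0.07). The calls of Igfbp2, Pdpn, Tbx2 and Slc7a10 were each lost without 6 to 8 of the 10 libraries taken singly (up to 0.142 for Pdpn), that of Slc7a10 also without the libraries high in Alb (0.0664) and that of Tbx2 with the GC offset (0.0622).

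Immune gene lists held few calls and lay in both directions. Of 20 tested interferon-stimulated genes, Oas2 and Stat2 were called as fallen (0.776% of all tested genes were), and the median log2 fold change was −0.10. Stat2, a subunit of the factor that carries the type I interferon signal (chromosome 10, 128270576 to 128292849), was at 61.7, 43.2, 64.3, 51.5 and 51.3 CPM in the sham libraries and 37.4, 39.9, 46.2, 34.3 and 38.2 CPM in the ovariectomized libraries, with ovariectomized library 3 inside the sham range (1.39-fold, log2 fold change −0.47, SE 0.10, adjusted p = 0.0179). Its call was lost without sham library 1, sham library 3 or ovariectomized library 1 (adjusted p up to 0.0661). Other members were not called: Ifit1 had a log2 fold change of 0.06, Rsad2 0.34 and Isg15 −0.19. Of 16 tested genes induced by interferon gamma 0 were called and 14 were lower (median −0.28), where 52.4% of all tested genes were lower. The lists of neutrophils (11 of 12 lower, median −0.51), T cells (18 of 20 lower, median −0.30) and chemokine ligands (23 of 31 lower, median −0.33) also held 0 called genes. Some other immune lists with 0 called genes were mostly higher: interstitial macrophages (11 of 12, median 0.15), MHC class II genes (8 of 11, median 0.11), mast cells and basophils (6 of 9, median 0.14) and B cells (8 of 14, median 0.04). Others with 0 called genes were mostly lower, among them alveolar macrophages (12 of 14, median −0.17) and lipid-laden macrophages (9 of 13, median −0.20). The same held for NK and cytotoxic effectors (10 of 13, median −0.27) and inflammatory cytokines (13 of 18, median −0.21). Cxcl5, a neutrophil-attracting chemokine (chromosome 5, 90759299 to 90761625), was at 6.18, 2.64, 10.998, 1.61 and 5.53 CPM in the sham libraries and 1.35, 1.23, 0.574, 0.250 and 0.0602 CPM in the ovariectomized libraries. The groups did not overlap, yet the call was missed (log2 fold change −2.94, SE 0.72, adjusted p = 0.0659).

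The dendritic cell and monocyte genes that the study's title names did not pass in this comparison. Tested markers numbered 10 each of type 1 and type 2 conventional dendritic cells (1 more of type 2 was not tested), 11 of mature migratory dendritic cells, 8 of the dendritic lineage, 9 of plasmacytoid dendritic cells and 10 each of classical and nonclassical monocytes, with 0 called in each list. Their medians lay between −0.25 (dendritic lineage) and −0.01 (type 2 conventional dendritic cells). The monocyte chemokine receptor gene Ccr2 was at 46.6 ± 6.01 CPM after sham surgery and 40.5 ± 8.94 CPM after ovariectomy (adjusted p = 0.642). Itgax, an integrin gene in both the dendritic lineage and the alveolar macrophage lists, was at 49.8 ± 13.8 CPM after sham surgery and 40.98 ± 2.29 CPM after ovariectomy (0.344). Flt3, Xcr1 and Cd209a were all under 10 CPM on average, with adjusted p of 0.867, 0.626 and 0.775. Mmp12, the macrophage elastase, was at 7.57, 4.24, 12.2, 4.53 and 5.64 CPM in the sham libraries and 6.005, 4.63, 3.08, 4.204 and 3.19 CPM in the ovariectomized libraries, with overlap between the groups (log2 fold change −0.69, adjusted p = 0.201).

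**Figure D4:**
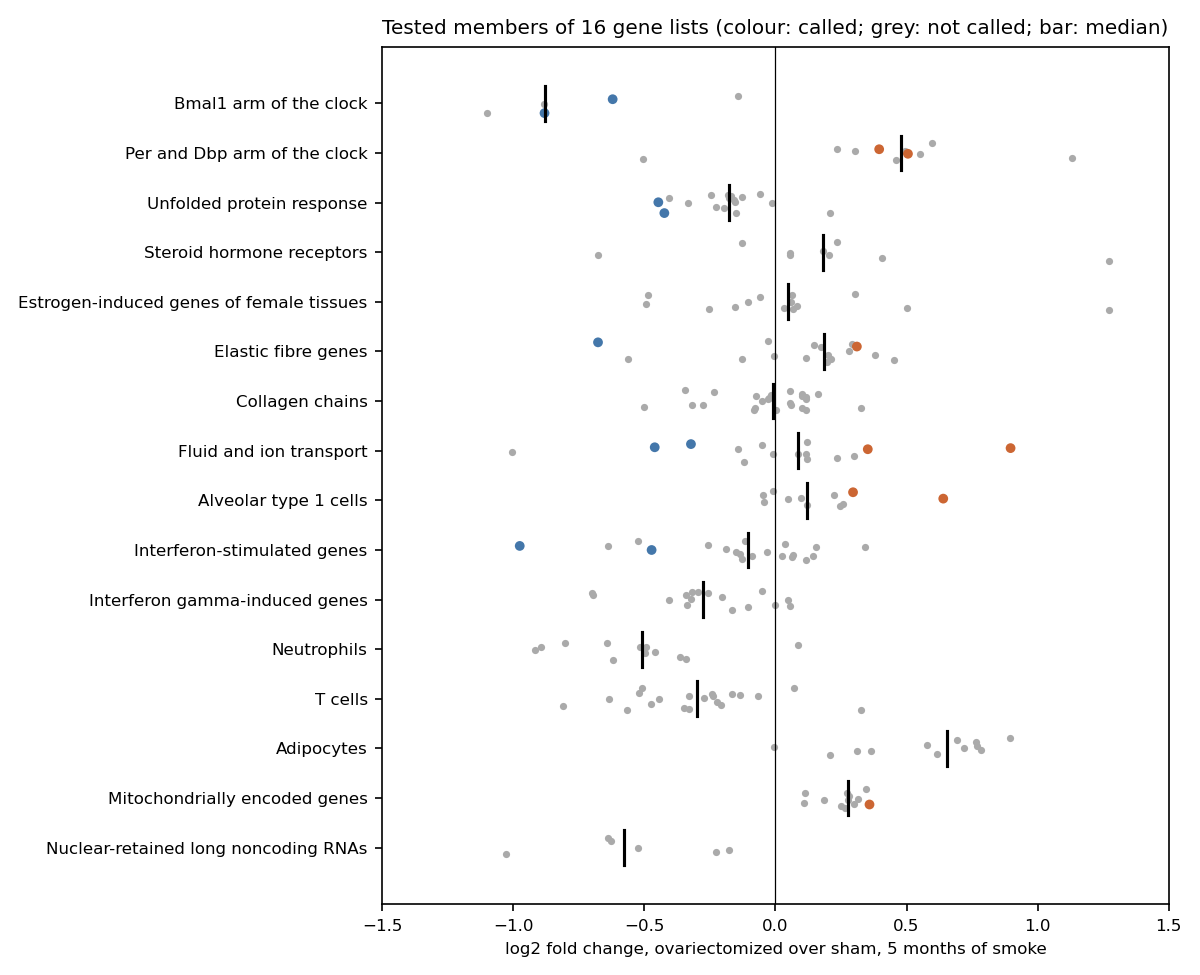
Each point is a tested gene of 1 of 16 lists, placed by its log2 fold change of ovariectomized over sham lungs after 5 months of smoke; called genes are orange (risen) or blue (fallen), grey points were not called, and the black bar is the list's median. The medians range from −0.88 in the Bmal1 arm of the clock to 0.66 in adipocytes, where 0 of 12 members were called.

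Single members of other lists changed. C7, a component of the membrane attack complex made by fibroblasts (chromosome 15, 4988762 to 5063773), was at 119, 116, 114, 132 and 127 CPM in the sham libraries and 162, 137, 194, 167 and 169.6 CPM in the ovariectomized libraries. All ovariectomized libraries were above all sham libraries (1.37-fold, log2 fold change 0.45, SE 0.08, adjusted p = 0.0145, up to 0.0425 without any 1 library). C7 was the 1 called gene among 18 tested complement genes, where 0.587% of all tested genes were called as risen. Of those 18 genes 12 were higher and 6 lower (median 0.12). Bnip3, a mitochondrial protein gene induced by low oxygen (chromosome 7, 138890836 to 138909519), was at 90.8, 79.4, 92.9, 84.7 and 84.8 CPM in the sham libraries and 112, 98.7, 105, 110.1 and 109 CPM in the ovariectomized libraries, a 1.24-fold rise without overlap (log2 fold change 0.31, SE 0.06, adjusted p = 0.0145, up to 0.0425 without any 1 library, but 0.0794 without the libraries high in Alb). Cdkn1a, the cell cycle inhibitor p21, was at 99.7, 97.02, 94.8, 80.7 and 87.2 CPM in the sham libraries and 79.04, 74.8, 72.6, 69.3 and 79.2 CPM in the ovariectomized libraries (1.23-fold fall, log2 fold change −0.29, SE 0.07, adjusted p = 0.0412). The heat shock gene Hspa4l fell 1.25-fold (86.5 to 94.4 CPM after sham surgery and 65.7 to 75.2 CPM after ovariectomy, adjusted p = 0.0482). The calls of Cdkn1a and Hspa4l were lost without 8 and 10 of the 10 libraries taken singly (up to 0.125 and 0.123) and without the libraries high in Alb (0.207 and 0.120), and that of Cdkn1a with the GC offset (0.0734). In 59 of the 78 lists examined 0 members were called.

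Adipocyte genes, nuclear noncoding RNAs and mitochondrial transcripts are described by their counts and levels, with 1 call among them. Over all tested genes 47.6% were higher and 52.4% lower, and 1.36% were called (0.587% as risen). Of 12 tested adipocyte genes 11 were higher and 0 called (median 0.66), with a summed level of 517 to 866 TPM in the sham libraries and 632 to 1208 TPM in the ovariectomized libraries. Adipoq, a defining adipocyte gene, was at 19.2, 11.9, 22.2, 12.5 and 11.2 CPM in the sham libraries and 18.99, 27.1, 16.7, 22.4 and 32.8 CPM in the ovariectomized libraries, with overlap. All 6 tested nuclear-retained long noncoding RNAs were lower (median −0.58, 0 called). Malat1, a transcript kept in the nucleus (chromosome 19, 5795690 to 5802672), was at 4442, 2573, 2487, 3686 and 2893 CPM in the sham libraries and 1275, 1540.1, 1781, 1946 and 1336 CPM in the ovariectomized libraries, without overlap (2.04-fold lower, log2 fold change −1.03, SE 0.24, adjusted p = 0.0623). Neat1, the scaffold of paraspeckles, was 1.44-fold lower (2039 to 2460.2 CPM after sham surgery and 1123 to 2111 CPM after ovariectomy, adjusted p = 0.0757). All 12 tested genes of the mitochondrial genome were higher and 1 was called, mt-Co1, a subunit of cytochrome c oxidase (1.28-fold, 7380.3 to 9782 CPM after sham surgery and 8931 to 11727 CPM after ovariectomy, adjusted p = 0.0268). That call was lost without 7 of the 10 libraries taken singly (adjusted p up to 0.0880). All counted genes of the mitochondrial genome, in or out of this list, took 1.76% to 2.46% of counts in the sham libraries and 2.03% to 2.71% in the ovariectomized libraries. The part of the adipocyte, nuclear and mitochondrial transcripts in the results above was not tested.

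**Figure D5:**
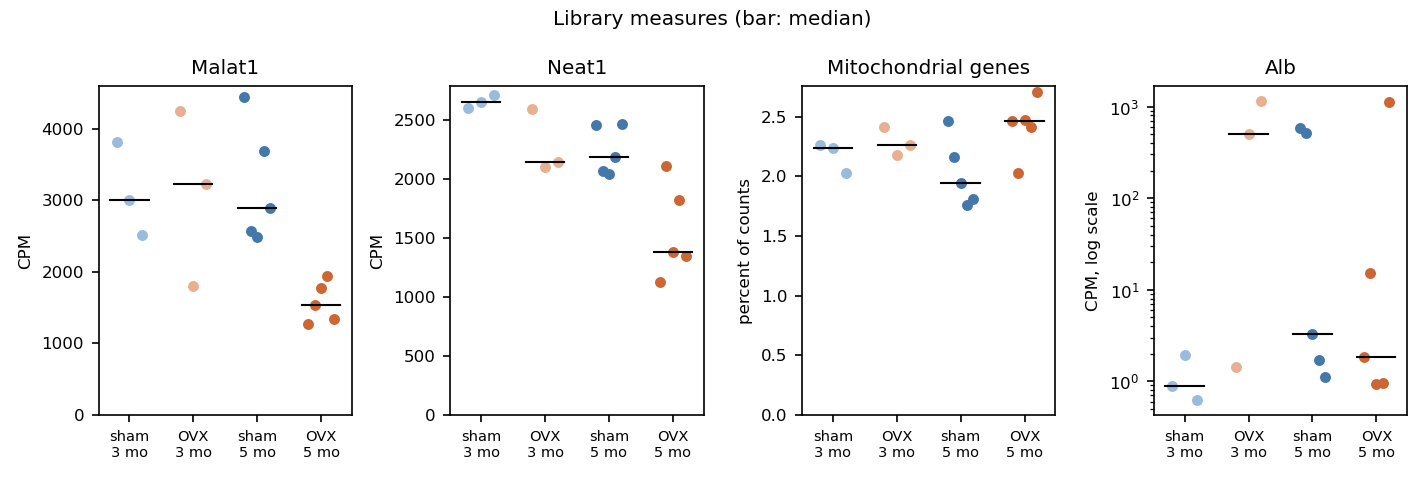
Each point is 1 library of the ovariectomy experiment, by group (sham or ovariectomized, OVX, at 3 or 5 months of smoke), with the median as a bar; the panels give Malat1 and Neat1 in CPM, genes of the mitochondrial genome as percent of counts, and the liver gene Alb in CPM on a log axis. At 5 months the lowest sham library is at 2487 CPM of Malat1 and the highest ovariectomized library at 1946 CPM, while Alb exceeds 100 CPM in 5 libraries of 3 groups.

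The called genes also differed in composition by direction. Taking the longest annotated transcript of each gene, the median GC content was 47.4% in the risen, 54.4% in the fallen and 49.7% in all tested genes. The median transcript length was 2792, 4270 and 3124 bases in the same order. These sets also differed in expression, with a median level of 114, 42.4 and 17.9 CPM. The genes named next were picked after their values were seen, and no share of their kinds among all genes was counted. The splicing factor gene Srrm2 was at 604, 514, 591, 561 and 552 CPM in the sham libraries and 387, 404, 490.03, 478 and 413 CPM in the ovariectomized libraries (1.299-fold, log2 fold change −0.38, SE 0.08, adjusted p = 0.0179), and the RNA helicase gene Ddx17 at 466, 445, 477, 465 and 470.5 CPM in the sham libraries and 333, 404, 329.9, 399.9 and 341 CPM in the ovariectomized libraries (1.28-fold, log2 fold change −0.36, SE 0.07, adjusted p = 0.0145). Neither gene's groups overlapped. Snrnp70, Luc7l2, U2af2, Nktr and Ccnl2 fell 1.16-fold (U2af2) to 1.36-fold (Nktr), and the chromatin genes Arid1a, Kmt2d and Crebbp 1.23-fold (Crebbp) to 1.37-fold (Kmt2d). Of 24 tested cytosolic ribosomal protein genes, 18 were higher and 1 was called, Rpl19, where 0.587% of all tested genes rose. Rpl19, a ribosomal protein gene (chromosome 11, 98026710 to 98030492), was at 551, 566, 569, 535 and 572 CPM in the sham libraries and 640.2, 657, 681, 653 and 633 CPM in the ovariectomized libraries, apart in all libraries (1.17-fold, log2 fold change 0.22, SE 0.06, adjusted p = 0.0482). Outside that list, Rps7, Eef1a1, Eif3f, Eif3h and Eif4b rose 1.18-fold (Eif4b) to 1.24-fold (Rps7). The Rpl19 call was lost when any 1 library was left out (adjusted p up to 0.118) and without the libraries high in Alb (0.121). With the offset for GC content 288 genes were called (181 risen, 107 fallen), and 185 of them were among the 230. Beyond that offset, the part of GC content in these changes was not tested, nor was that of the nuclear and mitochondrial RNA levels.

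The same operation was also compared at 3 months of smoke, in libraries that share none with the 5-month groups. At 3 months 0 of 16874 genes were called by edgeR's quasi-likelihood test (1568 at an unadjusted p under 0.05, or 9.29%, and smallest adjusted p = 0.0639), while DESeq2 called 93. The difference between the effects at 5 and 3 months was called for 0 genes (844 at an unadjusted p under 0.05, or 5.00%, smallest adjusted p = 0.938; 23 by DESeq2), so a different response at the 2 times was not shown for any gene by that test. Of the 230 genes called at 5 months, 206 (89.6%) had the same direction at 3 months, against 60.7% of all tested genes. By direction these were 85 of the 99 risen (85.9%) and 121 of the 131 fallen genes (92.4%). The called genes were chosen for a low p and were better expressed than all tested genes. No set matched for expression was compared. Gdf10 had a log2 fold change of 0.30 at 3 months, Muc6 −0.53, Oas2 −0.62 and Eln −0.33, each on the same side as at 5 months. The sodium channel subunit Scn3b was on the other side (−0.35), and so was Serpinh1 (0.23).

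Unoperated smoke-exposed females and males of the other experiment, which shares no library with the operated mice, were compared by the same procedure. Between the sexes 31 of 16361 tested genes (0.189%) were called. Of 228 genes called after ovariectomy and tested there, 3 (1.32%) were called, and all 3 had the direction in which ovariectomized females lie on the male side. Oas2 was at 13.1 CPM in females and 5.83 CPM in males (2.26-fold, adjusted p = 0.00209), beside means of 11.3 CPM after sham surgery and 5.73 CPM after ovariectomy. Fam198b was at 67.7 CPM in females and 95.5 CPM in males (adjusted p = 0.00191), and after surgery at 66.5, 69.3, 67.2, 62.6 and 70.9 CPM in the sham libraries and 86.9, 82.5, 102, 88.5 and 81.7 CPM in the ovariectomized libraries (1.31-fold rise, log2 fold change 0.39, SE 0.07, adjusted p = 0.0145). Zfp692 was at 14.2 CPM in females and 9.35 CPM in males (adjusted p = 0.0176), and after surgery at 16.2, 13.2, 12.04, 12.7 and 13.04 CPM in the sham libraries and 6.47, 10.2, 7.26, 9.31 and 8.13 CPM in the ovariectomized libraries (1.62-fold fall, log2 fold change −0.70, SE 0.16, adjusted p = 0.0275). Over all 228 genes, 197 (86.4%) had the same sign for ovariectomized minus sham and for male minus female, against 60.7% of the 16096 genes tested in both experiments. These shares are of unlike sets: the median level was 114 CPM in the risen and 42.4 CPM in the fallen genes, against 17.9 CPM in all tested genes. No set matched for expression was compared. The level scales of the experiments were set separately, so only directions are compared across them.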

How the data were processed

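Poly(A) RNA of mouse lung was sequenced; libraries were made with the NEBNext Ultra 2 kit, per the labels' protocols. The deposited whole-number counts per Ensembl gene (35275 genes) were the input of the tests. The deposited normalized table holds TPM, which the authors' header does not name: 100% of its values equal count over length, scaled, within 1e-06. The submitters' processing notes name FastQC, GRCm38 and mm10; no aligner, counting program or strand setting is given in the sources used here. Coordinates are those of the deposited count table.

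Counts of the 16 libraries of the ovariectomy experiment (3 and 5 per group) were filtered by filterByExpr (16874 genes), scaled by TMM and fitted with edgeR 4.0.16 in R 4.3.3, giving each of the 4 groups its own mean and all of them 1 dispersion estimate (robust option). A gene was called at a Benjamini-Hochberg adjusted p under 0.05 over all tested genes. The effects at 3 months and their difference came from the same fit, and the sex values from the same procedure on the other 16 libraries. CPM uses TMM-scaled totals. Named genes were the 15 largest rises and 15 largest falls among called genes with mean log2 CPM of at least 1, groups without overlap and a regular symbol, up to 4 called members of each of 78 gene lists, and a panel of hormone receptor, dendritic cell and monocyte genes; not all are printed. The lists and the comparison were chosen with earlier results of these data known. Lists are described by counts and medians only. Replicate numbers do not pair the libraries (closing section), and no library pair was a near-copy. Alternatives were RLE size factors, other filters, DESeq2 1.42.0, limma 3.58.1 on log2(TPM + 1), other sets of libraries in the fit, the replicate block, leaving out each library and, chosen after seeing the data, leaving out libraries over 100 CPM of Alb and a GC offset. The procedure was tested on simulated data. Promoters are RefSeq sequences (GRCm38.p6); 166 of the 230 called genes had an entry. Plots were drawn with matplotlib 3.10.9.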

Additional observations from a re-analysis of the deposited data

Results flagged for a closer look

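Among 144 groups of 5 libraries (72 named genes in 2 groups), 10 held 1 library that stood far from the other 4, with a gap to its neighbour of over 0.71 of the group's whole range; chance gives about 1 in 20 groups. Ovariectomized library 5 was the outlying library in 4 of them: it was highest for Srpx (12.2 CPM, next 8.88), Cxcl13 (28.7 CPM, next 15.1), the aryl hydrocarbon receptor target Cyp1a1 (12.3 CPM, next 5.01) and Alb (1113 CPM, next 15.4). In the other ovariectomized libraries, mt-Co1 was lowest in library 2 (8931 CPM, next 10936) and Slc26a9 highest in library 1 (80.7 CPM, next 67.2). Among sham libraries, Cpxm1 was lowest in library 5 (12.4 CPM, next 19.6), Gper1 highest in library 5 (1.49 CPM, next 0.804), Nfil3 highest in library 1 (15.8 CPM, next 11.5) and Trim46 highest in library 4 (15.8 CPM, next 12.4). Of these genes, 6 were called, and all 6 kept their direction without the outlying library. The adjusted p without it was 0.0534 for Srpx, 0.0646 for Cpxm1, 0.112 for Nfil3 and 0.0558 for Trim46, which ended those calls, and 0.00949 for mt-Co1 and 0.0362 for Slc26a9.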

How the results depend on the processing

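The number of genes called at 5 months was 214 with RLE size factors, 248 without a filter, 235 with a strict filter, 245 with all 32 libraries in 1 fit and 161 with only the 10 libraries compared. It was 602 (307 risen, 295 fallen) by DESeq2, 191 (17 risen) by limma on log2(TPM + 1), 111 (39 and 72) without the libraries over 100 CPM of Alb and 288 (181 risen) with the GC offset. With the replicate block, fitted on the 10 libraries, it was 72 (25 risen, 47 fallen); same-numbered libraries correlated between −0.30 and 0.15 and 0 of 5 correlated best with their own number, so the numbers do not pair the libraries. Leaving out 1 library gave 39 (15 risen, 24 fallen) to 259 (113 and 146) calls. At 3 months the 0 calls became 3 without a filter, 93 by DESeq2, 6 with all 32 libraries and 0 to 6 without 1 library; the difference between times gave 23 by DESeq2 and 0 without any 1 library. Of 52 named called genes, 6 kept their call without every single library, 6 under every other setting, and 0 turned direction. Only Gdf10 and Creld2 were in both sets of 6. Of those that held without every single library, C7 lost its call with all 32 libraries in the edgeR fit (adjusted p = 0.0913). Clec11a lost its call with the replicate block (0.0687, edgeR), and Muc6 (0.0595) and Bnip3 lost theirs by limma. With 5 libraries per group and 14174600 to 24497332 counts per library, calls below 1.15-fold were not made.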

Other observations

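Gene groups outside the main account showed small shifts. Of 14 tested fatty acid synthesis genes 12 were higher and 0 called (median log2 fold change 0.16), while of 18 cholesterol synthesis and uptake genes 13 were lower and 0 called (median −0.06). Of 7 targets of the aryl hydrocarbon receptor, the sensor of smoke components, 6 were higher and 0 called (median 0.25), and Cyp1a1 was at 0.833, 2.41, 2.36, 5.05 and 2.98 CPM in the sham libraries and 3.93, 4.701, 5.01, 3.75 and 12.3 CPM in the ovariectomized libraries. Of 16 genes of the NRF2 response to oxidants 0 were called. Of 28 cell cycle genes 21 were higher and 0 called (median 0.07). Of 15 tested plasma cell and antibody genes 13 were lower and 0 called (median −0.27), and of 11 platelet and megakaryocyte genes 8 were higher and 0 called (median 0.41).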
